A study of Homo sapiens with 6 samples.

Results

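MAP2 and 9 other genes for proteins that bind microtubules or tubulin were followed in RNA sequencing of SiHa PR cells, in which MAP2 had about 2.07-fold more RNA with P4HA3 overexpression and the other 9 members ranged from 1.57-fold lower (STMN3) to 1.23-fold higher (MAP1B). The 10 members were MAP2, MAP4, MAPT, MAP1A, MAP1B, MAP1S, MAP7, MAP7D1, STMN1 and STMN3, found by symbol among the 60664 genes counted. All 10 passed the filter on low counts that left 15130 genes. SiHa is an established human cervical carcinoma line, and SiHa PR names the parental cells of a derivative that metastasizes to lymph nodes and was established in earlier work of the study's group. The 3 control libraries came from SiHa PR cells without overexpression, and the other 3 came from SiHa PR cells with P4HA3 overexpression, for which the study's methods describe lentiviral vectors. Whether the controls carried an empty vector is not given for these libraries, so any part of the vector in the contrast was not tested. P4HA3 encodes a catalytic subunit of the collagen prolyl 4-hydroxylases. Whether the cells were clones or pools is not given in the sources used here, nor whether the 3 libraries of a group came from separate cultures, so the spread between them may be technical. MAP2 was also picked by the study from these libraries, as a gene of its heatmap of the largest rises, so the values of this contrast describe the members and test nothing about them.

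Microtubules are hollow polymers of alpha and beta-tubulin that grow and shrink at their ends. Structural microtubule-associated proteins such as MAP2, MAP4 and tau (the product of MAPT) lie along the lattice through similar repeats near their carboxyl ends and stabilize it, MAP1 proteins bind it through light and heavy chains cut from a common precursor, and MAP7 proteins recruit kinesin-1. Stathmins do the opposite, since they hold free tubulin dimers and promote shrinkage. MAP2, MAPT, MAP1A, MAP1B and STMN3 are best known from neurons, in which MAP2 marks dendrites and tau the axon, whereas MAP4, MAP1S, MAP7, MAP7D1 and STMN1 are found in many dividing cells. Kinases such as the MARK family release MAP2, MAP4 and tau from microtubules by phosphorylating their repeats.

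The members of a common family that were compared can be told apart by their sequences, which matters for counts that reads of a near copy could split. MAPT was not compared with MAP2 and MAP4. MAP2 and MAP4 are shown at their most alike stretch of 120 coding bases, which encodes part of the microtubule-binding repeats. Of these bases, 85 (70.8%) were the same, and capitals mark these bases. The longest run of identical bases in the full coding sequences of MAP2 (5481 bases) and MAP4 (6888 bases) was 17. The window of MAP2 covers coding bases 5116 to 5235, in exons 14 and 15 of 16 (GRCh38, plus strand, chr2:209725751-209725790 and chr2:209729850-209729929). That of MAP4 covers coding bases 6544 to 6663, in exons 18 and 19 of 21 (minus strand, chr3:47857431-47857470 and chr3:47855281-47855360).
MAP2: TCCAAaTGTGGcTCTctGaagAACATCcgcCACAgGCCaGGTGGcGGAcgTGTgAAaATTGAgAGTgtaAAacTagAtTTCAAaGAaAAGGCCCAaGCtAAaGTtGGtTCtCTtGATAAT
MAP4: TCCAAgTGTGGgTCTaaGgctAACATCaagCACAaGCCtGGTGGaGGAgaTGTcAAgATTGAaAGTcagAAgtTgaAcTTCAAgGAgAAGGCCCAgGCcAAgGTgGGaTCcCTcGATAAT
The longest shared runs in the other families were 17 bases for MAP1A and MAP1B, 23 for MAP1A and MAP1S, 14 for MAP1B and MAP1S, 14 for MAP7 and MAP7D1, and 13 for STMN1 and STMN3. Exons on the same strand were shared only by STMN1, with the microRNA gene MIR3917, over 66 bases (1.06% of its exon bases). MAPT, MAP1S, MAP7 and MAP7D1 overlapped exons on the opposite strand over between 75 and 217 bases (at most 4.40%). The libraries kept strand, but the strand setting of the counting is not given in the sources used here, so these bases could hold reads of either gene.

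RefSeq start regions (250 bases before and 50 after a start, GRCh38.p14) were found for 9 of the 10 members, all but MAPT, with 19 windows in all. Of the 3 windows of MAP2, 2 are shown, with that of STMN3, because these members differed most between the groups, in opposite directions, and because their starts differ in base composition. Capitals mark the letters of any motif searched on both strands, which were TATAAA (the TATA box), CCAAT (the CCAAT box), GGGCGG (the GC box), TGANTCA (an AP-1 site), CACGTG (an E-box) and TGACGTCA (the cAMP response element).
MAP2, chr2:209579357-209579656, plus strand: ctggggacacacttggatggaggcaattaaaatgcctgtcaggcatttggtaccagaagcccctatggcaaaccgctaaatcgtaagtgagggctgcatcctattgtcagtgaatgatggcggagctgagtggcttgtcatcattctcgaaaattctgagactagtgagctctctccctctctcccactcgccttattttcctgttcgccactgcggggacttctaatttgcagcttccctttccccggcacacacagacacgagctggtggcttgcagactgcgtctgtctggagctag
MAP2, chr2:209661246-209661545, plus strand: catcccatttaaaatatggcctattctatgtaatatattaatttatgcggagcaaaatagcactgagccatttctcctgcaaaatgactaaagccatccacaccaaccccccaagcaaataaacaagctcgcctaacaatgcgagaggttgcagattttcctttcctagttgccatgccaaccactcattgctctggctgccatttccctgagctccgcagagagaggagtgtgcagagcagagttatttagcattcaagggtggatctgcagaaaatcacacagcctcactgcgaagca
STMN3, chr20:63652717-63653016, minus strand: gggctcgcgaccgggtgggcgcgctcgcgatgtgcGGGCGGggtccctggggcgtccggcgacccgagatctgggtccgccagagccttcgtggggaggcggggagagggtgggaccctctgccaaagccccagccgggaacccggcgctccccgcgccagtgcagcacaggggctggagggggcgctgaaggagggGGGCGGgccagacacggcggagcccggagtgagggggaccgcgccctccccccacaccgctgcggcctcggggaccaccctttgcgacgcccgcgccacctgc
These 2 MAP2 windows held none of the motifs, with a GC content of 52.3% and 45.3% and 10 and 5 CpG dinucleotides. The MAP2 window not shown (chr2:209579082-209579381), which overlaps the first, held CCAAT beginning at position -220, with 40% GC and 7 CpG. The STMN3 window had a GC content of 77.7%, 35 CpG and GGGCGG beginning at positions -215 and -53. The median over 35116 windows was 58.7% GC and 14 CpG, and GGGCGG was present in 45% of them. Over all 19 windows of the members, 11 held GGGCGG, 5 held CCAAT (34.6% of all windows), 2 held TATAAA (11.5%), 1 held CACGTG (7.26%) and none held TGANTCA (7.71%) or TGACGTCA (1.85%). Such matches are letters in a window, not binding sites, and gene counts do not tell which start was used.

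The libraries held between 21773488 and 24939948 counts, and P4HA3 itself had 86, 62 and 93 counts in control libraries 1, 2 and 3 against 45042, 44775 and 49097 with overexpression. Epithelial keratins were abundant, with KRT7 at 4329 CPM, KRT8 at 1817 CPM and KRT17 at 5338 CPM on average in control cells (CPM here are read counts scaled to the library size after TMM normalization). The smooth muscle genes MYH11, DES and CNN1 and the leukocyte gene PTPRC, picked after their values were seen, were at or near 0. Other genes of these lists were counted, the 8 smooth muscle markers summing to between 16.1 and 18.6 CPM in controls and the 5 leukocyte markers to between 91.3 and 109.7 CPM, nearly all of it CD14. The deposited growth protocol describes uterine smooth muscle, which the study and the other labels, naming SiHa cells, do not bear out. Across genes, the log2 difference between the groups followed GC content (Spearman rho -0.58 over 15107 genes, which are not independent replicates), with a median of 0.15 for transcripts of 40 to 45% GC and -0.27 for those of 65 to 70%. Members with GC-rich and with GC-poor transcripts are touched by this trend. Libraries of the same group also differed in their dependence on GC content. Deviations from the group mean had a rho with GC content of -0.52 to 0.38 in controls. With P4HA3 overexpression this rho was -0.48 to 0.45. Values corrected for the trend are therefore given beside the counts, with the smooth dependence on GC content and transcript length taken out of every library.

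MAP2 (ENSG00000078018, chr2:209424047-209734147, plus strand), the dendritic microtubule stabilizer, was the member with the largest difference. It had 267, 261 and 293 counts in control libraries 1, 2 and 3, and 481, 688 and 553 counts in P4HA3 libraries 1, 2 and 3. As CPM these were 10.96, 12.25 and 11.97 against 20.7, 30.6 and 21.8. Every P4HA3 library lay above every control library, and P4HA3 library 2 stood above the other two. The mean went from 11.7 ± 0.677 CPM (SD, n = 3) to 24.35 ± 5.44 (n = 3), and the log2 fold change was 1.05 ± 0.143 (SE). By size, MAP2 ranked 10 among the 1387 genes called higher at mean levels of 1 CPM or more, P4HA3 included. Without that limit on level, it ranked 29 among the 1416 genes called higher. Without P4HA3 library 2 the log2 fold change was 0.86. With the GC and length trend removed it was 0.84 ± 0.0900, and the libraries then read 12.3, 13.4 and 11.98 CPM against 21.7, 25.3 and 20.4. In bulk RNA, more RNA per cell and more cells of a kind cannot be told apart.

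MAP4 (ENSG00000047849, chr3:47850690-48089272, minus strand), the relative of MAP2 that most dividing cells use, was far more abundant and hardly differed. It had 417, 431 and 427 CPM in the control libraries and 414, 417 and 422 CPM with P4HA3 overexpression. The groups overlapped, and the log2 fold change was -0.02 ± 0.051, or -0.07 ± 0.049 with the trend removed. MAPT (ENSG00000186868, chr17:45894527-46028334, plus strand), which encodes tau, had 16.2, 16.0 and 17.2 CPM in control libraries and 13.0, 12.5 and 13.8 CPM in P4HA3 libraries. All P4HA3 libraries of MAPT lay below all controls, by a log2 fold change of -0.33 ± 0.085, and by -0.23 ± 0.0757 with the trend removed. In CPM per kilobase of all exons joined, MAP2 made up 3.28% ± 0.130 of the summed level of MAP2, MAP4 and MAPT in control cells. It made up 6.70% ± 1.40 with P4HA3 overexpression. MAP4 held 93.8% ± 0.150 and 91.0% ± 1.27 of that sum, so it remained by far the main RNA of the family in these cells.

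**Figure D1:**
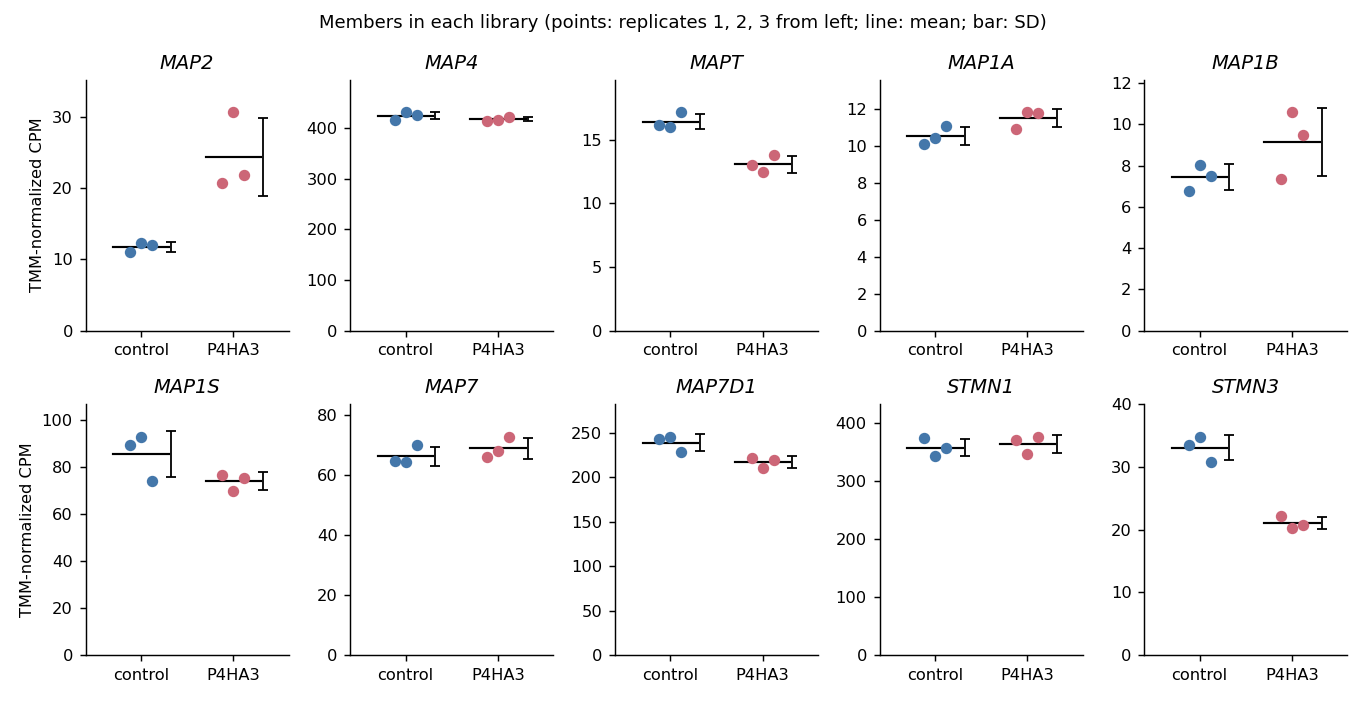
TMM-normalized CPM of each member, with 1 point per library (replicates 1, 2 and 3 from left) in control and P4HA3 overexpression cells, a line at the mean and a bar for the SD (n = 3). Each panel has its own axis from 0. The P4HA3 points of MAP2 (20.7 to 30.6 CPM) sit above all its control points, those of STMN3 (20.3 to 22.1 CPM) sit below all of its own, and the points of MAP4 and STMN1 overlap.

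The MAP1 proteins share chains that link microtubules to other structures, and as counted all 3 genes overlapped between the groups. MAP1A (ENSG00000166963, chr15:43510958-43531620, plus strand), mainly a protein of mature neurons, had 10.1, 10.4 and 11.1 CPM in controls and 10.9, 11.8 and 11.8 CPM with overexpression, a log2 fold change of 0.13 ± 0.090. With the trend removed it was 0.16 ± 0.0757, and the MAP1A groups separated, with 10.4, 9.96 and 10.9 CPM against 11.7, 11.3 and 11.96. MAP1B (ENSG00000131711, chr5:72107234-72209565, plus strand), which acts in growing axons, had 6.78, 8.03 and 7.52 CPM against 7.34, 10.6 and 9.50 CPM, a log2 fold change of 0.30 ± 0.139, or 0.13 ± 0.0981 with the trend removed. P4HA3 library 1 of MAP1B lay within the control range and libraries 2 and 3 above it. MAP1S (ENSG00000130479, chr19:17719242-17734513, plus strand), the short member expressed in many tissues, had 89.2, 92.7 and 74.1 CPM against 76.6, 69.5 and 75.2 CPM. Control library 3 of MAP1S lay among the P4HA3 libraries, and the log2 fold change of -0.21 ± 0.085 became 0.08 ± 0.0503 with the GC and length trend removed, when every P4HA3 library (80.7 to 82.1 CPM) lay above every control (71.3 to 80.4 CPM). MAP1S has a transcript of 68.0% GC. Per kilobase of all exons joined, it made up 91.5% ± 1.2 of the summed MAP1 level in controls and 89.2% ± 1.39 with overexpression.

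The MAP7 genes encode partners of kinesin-1. MAP7 (ENSG00000135525, chr6:136342281-136550819, minus strand) had 64.6, 64.3 and 69.9 CPM in control libraries and 66.1, 68.1 and 72.8 CPM with overexpression. Its groups overlapped, with a log2 fold change of 0.06 ± 0.064, or -0.01 ± 0.047 with the trend removed. MAP7D1 (ENSG00000116871, chr1:36155579-36180849, plus strand) had 244, 246 and 228 CPM in controls and 222, 210 and 220 CPM with overexpression, all P4HA3 libraries being below all controls. Its log2 fold change of -0.14 ± 0.055 changed sign to 0.12 ± 0.0363 once the trend was removed. The MAP7D1 libraries then read 219, 216 and 220 CPM in controls and 234, 241 and 239 CPM with overexpression, so neither direction can be given for this transcript of 65.4% GC.

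The stathmins diverged. STMN1 (ENSG00000117632, chr1:25884181-25906991, minus strand), the tubulin-sequestering protein of dividing cells, had 373, 343 and 356 CPM in controls and 370, 345 and 376 CPM with overexpression. Those groups overlapped almost fully, with a log2 fold change of 0.03 ± 0.059, or -0.05 ± 0.046 with the trend removed. STMN3 (ENSG00000197457, chr20:63639705-63657682, minus strand), a membrane-anchored stathmin of neurons, had 33.5, 34.8 and 30.9 CPM in controls and 22.1, 20.3 and 20.8 CPM with overexpression. Every P4HA3 library of STMN3 lay below every control, the log2 fold change was -0.65 ± 0.078, and with the trend removed it was -0.40 ± 0.0529. Per kilobase of all exons joined, STMN3 contributed 16.0% ± 1.12 of the summed level of STMN1 and STMN3 in controls. It contributed 10.7% ± 0.393 with overexpression. These shares depend on the length chosen, since STMN1 has 6247 bases of exons joined but a canonical transcript of 1443 bases. Per kilobase of the canonical transcript, controls had 248 CPM for STMN1 and 14.7 for STMN3, and P4HA3 cells had 252 and 9.37.

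**Figure D2:**
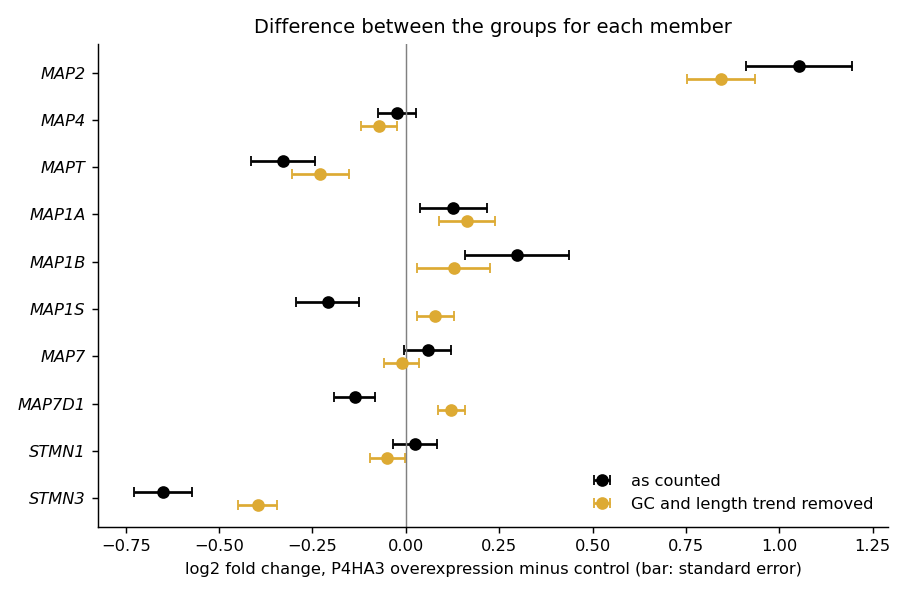
Log2 fold change of each member (P4HA3 overexpression minus control, 3 libraries each) with its standard error, as counted (black) and with the GC and length trend of each library removed (yellow). MAP2 stays highest in both (1.05 and 0.84) and STMN3 lowest (-0.65 and -0.40). MAP1S and MAP7D1 change sign, as do MAP7 (0.06 and -0.01) and STMN1 (0.03 and -0.05), which lie near 0.

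With the quasi-likelihood test of edgeR, adjusted by Benjamini-Hochberg over the 15130 genes and read at 0.05, 1 member, MAP2, was called higher and 2, MAPT and STMN3, were called lower. Of all genes tested, 9.36% were called higher and 11.4% lower. The members were chosen with this contrast known, so nothing is read from these counts. Every P4HA3 library lay above every control for 1 member (19.7% of all genes) and below for 3 members (20.4% of all genes), MAPT, MAP7D1 and STMN3. The median log2 fold change was 0.00 over the members and 0.01 over all genes. The call for MAPT was lost without control library 1, 2 or 3, without P4HA3 library 3, and with the trend removed (it was kept where the trend was removed and the replicate number was a block), which leaves MAP2 and STMN3 as the members called under all 15 alternatives.

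The members' transcripts ran from 42.1% GC (MAP2) to 68.0% (MAP1S). MAP2, MAP1B, MAP7 and STMN1, all between 42.1% and 45.4% GC, had positive log2 fold changes, and the 4 members above 57% GC had negative ones. Genes of like GC content had a median of 0.15 beside MAP2 (40 to 45% GC), -0.14 beside MAPT (55 to 60% GC), -0.21 beside STMN3 (60 to 65% GC) and -0.27 beside MAP1S and MAP7D1 (65 to 70% GC). MAP2 and STMN3 lay well away from the medians of their GC classes, and MAP1S and MAP7D1 lay within the middle 50% of theirs. MAPT (-0.33) lay just below the middle 50% of its class (-0.30 to -0.01), and MAP1A (0.13) lay above that of the same class. MAP1B (0.30) lay just above the middle 50% of its class (0.01 to 0.27).

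**Figure D3:**
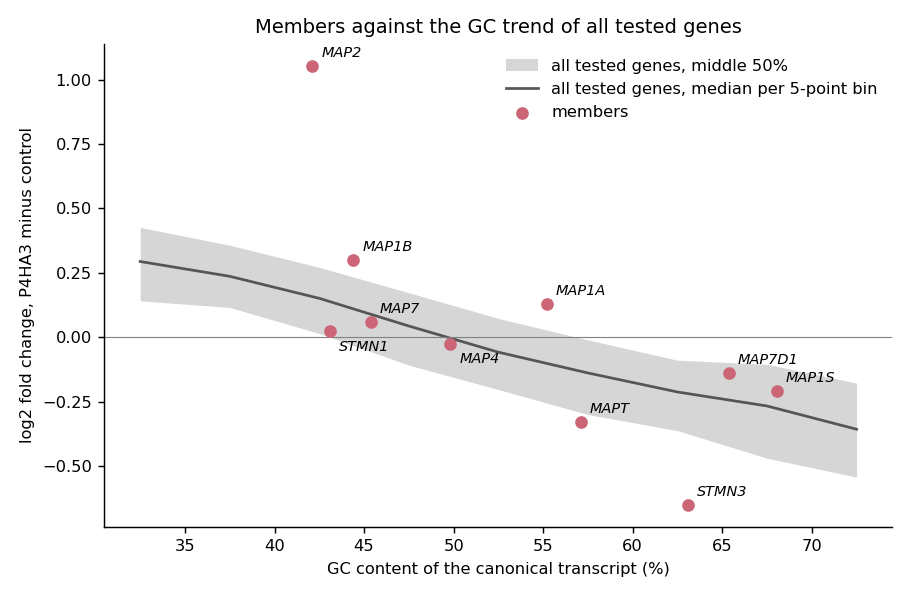
Log2 fold change of each member (points) against the GC content of its canonical transcript in percent, with the median (line) and the middle 50% (band) of all tested genes per class of 5 percentage points. MAP2 (1.05) stands above the band, STMN3 (-0.65) below it, and MAP1S and MAP7D1 within it. MAP1A and MAP1B also lie above the band, and MAPT just below it.

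Compared per length, the members spanned a wide range of levels. In CPM per kilobase of the canonical transcript, control cells had 248 for STMN1, 70.9 for MAP7D1, 46.0 for MAP4, 25.9 for MAP1S, 17.6 for MAP7 and 14.7 for STMN3. The other 4 were low, with 2.41 for MAPT, 1.22 for MAP2, 1.03 for MAP1A and 0.631 for MAP1B. With P4HA3 overexpression MAP2 reached 2.52, above MAPT at 1.92, while STMN3 went to 9.37. The order of the first 6 was the same per kilobase of all exons joined. The order of the lower 4 depended on the length chosen, since MAPT, with exons of 18400 bases joined but a canonical transcript of 6815 bases, went from place 7 to place 9. Per kilobase of joined exons, the control libraries of MAP2 overlapped those of MAP1A and MAPT. The members known from dividing cells therefore held the upper levels, together with STMN3, and those known best from neurons the lower ones.

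The genes whose profile over the 6 libraries was nearest to that of MAP2, among 13369 genes at mean levels of 1 CPM or more, were DIO2, SLC7A11, RTN4RL1, CPA4 and NEXN. Likeness was the root mean square difference of log2 CPM, centred on the control mean, and came to 0.104 for DIO2 (a deiodinase that activates thyroid hormone), 0.127 for SLC7A11 (the cystine transporter), 0.152 for RTN4RL1, 0.166 for CPA4 (a carboxypeptidase) and 0.170 for NEXN (an actin-binding protein). Each was highest in P4HA3 library 2, as MAP2 was, which the choice of genes by their likeness to MAP2 favours. The profiles were compared as counted, without the GC and length trend removed. SLC7A11, for example, had 11.99, 12.5 and 14.7 CPM in controls and 20.2, 37.4 and 22.6 CPM with overexpression. The points share libraries and depth, and the likeness is a description.

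MAP2 is also a marker of neurons, so the other neuronal genes were read beside it. Of 17 neuron markers, 8 passed the filter, and 3 were called higher, which were MAP2, the neurofilament gene NEFL (7.30 ± 0.190 to 9.87 ± 1.27 CPM, n = 3 each, adjusted p = 0.0258 by edgeR) and the intermediate filament gene INA (133 ± 8.18 to 154 ± 9.63 CPM, n = 3 each, adjusted p = 0.0497 by edgeR). Of all genes, 9.36% were called higher. MAP2 was chosen with this contrast known, so its place among the 3 adds nothing, and INA lay just under the threshold. The summed level of the 17 neuron markers ran from 530.5 to 539.0 CPM in controls and from 588.5 to 623.8 CPM with overexpression, most of it NEFH (368 and 411 CPM) and INA. Other markers of the neuron list were at or near 0. DCX had no count in any library, and RBFOX3, ELAVL3, ELAVL4, GAP43 and STMN2 had means under 0.3 CPM in each group. These were picked after their values were seen and do not stand for the whole list. The tubulin TUBB3, also a marker, went from 6.46 ± 0.298 to 5.37 ± 0.470 CPM and did not pass (adjusted p = 0.111, edgeR). TUBB3 shares 21.3% of its exon bases with another gene on the same strand, so its counts may miss reads. Of 8 genes tested from the epithelial list, none was called higher and 4 lower, beside 9.36% and 11.4% of all genes. These 4 were KRT17, KRT18, CDH1 and CDKN2A, the last of which does not mark epithelial identity. With the trend removed, 1 gene of the epithelial list was called higher and 2 lower, and 4 neuron markers, MAP2 among them, were called higher. Over all 15107 genes of that fit, 1598 were called higher and 1204 lower. Of the smooth muscle, leukocyte and endothelial markers, 3, 1 and 1 were tested, TAGLN rising from 8.84 ± 0.441 to 17.2 ± 0.612 CPM (38.1% of its exon bases lie in another gene of the same strand) and CD14 and PECAM1 falling from 99.9 to 45.1 and from 2.89 to 1.40 CPM. The part of these genes in the values of MAP2 was not tested.

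Beyond the members, 144 genes of the microtubule system were listed by function, of which 118 passed the filter. At the same threshold, 22 rose (18.6%, beside 9.36% of all genes tested) and 12 fell (10.2%, beside 11.4%), with a median log2 fold change of 0.13. The counts leaned on single libraries, as did those over all genes. Without control library 1 or 2 or P4HA3 library 3, between 6 and 7 rose and between 3 and 6 fell. Over all genes, these fits called between 163 and 275 higher and between 371 and 629 lower, against 1416 and 1731 with every library. Without P4HA3 library 1, 42 rose and 18 fell, beside 2814 and 2716 of all genes. Without P4HA3 library 2, 18 rose and 7 fell, beside 884 and 1322 of all genes. With the GC and length trend removed, 30 rose and 7 fell, beside 1598 higher and 1204 lower of all 15107 genes of that fit. The counts with the trend removed in the lists below have this same background.

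The nearest relatives of the members gave 1 call among 7 genes tested. MAP1LC3A, a light chain relative better known as an autophagosome protein, fell from 40.8 ± 2.53 to 26.0 ± 3.40 CPM (log2 fold change -0.65 ± 0.0975, adjusted p = 0.0029, edgeR). MAP1LC3B, the more abundant paralog, had a log2 fold change of 0.07, and MAP1LC3B2, whose reads can be split with this near copy, of -0.12. The MAP7 relatives MAP7D2 (0.24) and MAP7D3 (0.32) and the cold-stable microtubule proteins MAP6 (-0.12) and MAP6D1 (-0.23) did not pass. MAP6D1 shares 69.1% of its exon bases with another gene on the same strand. MAP1LC3C had no count, and STMN2, STMN4, MAP9 and MAP10 were below 0.2 CPM on average in each group, so the stathmin RNA counted in these cells was that of STMN1 and STMN3.

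Among tubulins, 10 of 17 genes were tested, with 1 rise and 1 fall. The most abundant per kilobase of the canonical transcript were TUBA1B, at 1908 ± 63.3 and 2083 ± 169 CPM in control and P4HA3 cells (adjusted p = 0.228, edgeR), and TUBB, at 2157 ± 52.1 and 2415 ± 110.1 CPM (adjusted p = 0.0928, edgeR). TUBB4B was the first beta-tubulin when all exons were joined. TUBB6 rose from 445 ± 14.4 to 538 ± 27.4 CPM (log2 fold change 0.27, adjusted p = 0.0137, edgeR). TUBB4A, the beta-tubulin of the brain, fell from 3.62 ± 0.374 to 1.67 ± 0.248 CPM (log2 fold change -1.11, adjusted p = 0.00274, edgeR), with 93, 82 and 78 counts against 33, 43 and 43. With the trend removed, 6 tubulins rose and 1 fell. Of the 5 tubulin folding cofactors tested only TBCD passed (-0.21, adjusted p = 0.0337, edgeR), and with the trend removed 1 rose and 1 fell. Of 18 genes that modify tubulin by tyrosine, glutamate or acetyl groups, TTLL1, a glutamylase subunit, fell (-0.47, adjusted p = 0.0438, edgeR) and none rose. With the trend removed, TTLL1 did not pass and 1 gene of this list rose.

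Of 19 genes for proteins at the plus end of microtubules, 6 rose and 3 fell, with a median log2 fold change of 0.22, and with the trend removed 4 rose and 1 fell (median 0.09). NAV2, a neuron navigator, rose from 31.4 ± 1.84 to 54.8 ± 8.46 CPM (log2 fold change 0.80, adjusted p = 0.00160, edgeR). GTSE1, an inhibitor of the depolymerase MCAK, rose from 81.6 ± 0.434 to 112 ± 3.67 CPM (0.45, adjusted p = 0.00111, edgeR). NAV3 rose from 1.39 ± 0.365 to 2.44 ± 0.612 CPM (0.81, adjusted p = 0.0402, edgeR), and its call was lost with the trend removed. NAV2 and GTSE1 kept theirs under all 15 alternatives.

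At minus ends and in nucleation, 3 of 14 genes rose and 2 fell (median -0.01), and with the trend removed 4 rose and none fell (median 0.08). TUBGCP5 (0.31, adjusted p = 0.0187, edgeR) and MZT1 (0.30, adjusted p = 0.0200, edgeR), both of the gamma-tubulin ring complex, rose, and the minus-end protein CAMSAP3 fell (-0.35, adjusted p = 0.0321, edgeR). The calls of MZT1 and CAMSAP3 were lost with the trend removed. Among 6 severing genes 3 rose and 1 fell (median 0.19), and with the trend removed 1 rose and 1 fell (median 0.07). KATNAL1, which encodes an enzyme that cuts microtubules, rose from 9.26 ± 1.25 to 13.4 ± 2.30 CPM (0.53, adjusted p = 0.0258, edgeR), and FIGNL1 rose from 12.8 ± 0.762 to 16.9 ± 2.78 CPM (0.41, adjusted p = 0.0381, edgeR). FIGNL1 is better known for DNA repair, and its call was lost with the trend removed. Of 12 genes that bind the lattice, 2 rose and 2 fell (median 0.04), and with the trend removed 3 rose and 2 fell (median -0.04). GAS2L3, which links actin to microtubules, rose from 11.8 ± 1.31 to 19.0 ± 2.53 CPM (0.69, adjusted p = 0.00566, edgeR), and the doublecortin-like kinase DCLK2 from 6.85 ± 0.107 to 9.65 ± 0.478 CPM (0.49, adjusted p = 0.00849, edgeR). EML3 fell from 47.0 ± 1.87 to 34.4 ± 1.21 CPM (-0.45, adjusted p = 0.00274, edgeR).

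The highest median was that of the spindle microtubule-associated proteins, at 0.41, with 6 of 14 higher and none lower. TPX2, which activates Aurora A and nucleates spindle microtubules, rose from 449 ± 7.68 to 597 ± 20.6 CPM (0.41, adjusted p = 0.00179, edgeR). DLGAP5 rose from 32.3 ± 3.02 to 47.0 ± 8.51 CPM (0.54, adjusted p = 0.0152, edgeR) and CKAP2 from 27.5 ± 2.84 to 39.2 ± 9.60 CPM (0.51, adjusted p = 0.0388, edgeR). With the trend removed 7 of the 14 rose and the median was 0.33, although CKAP2 no longer passed. PRC1 and NUSAP1 share 57.6% and 86.8% of their exon bases with other genes on the same strand, so their low counts (means under 1.5 CPM) may miss reads. Of 13 kinases that phosphorylate MAP2, MAP4 or tau, 1 rose, TAOK3, from 41.7 ± 2.16 to 54.0 ± 6.42 CPM (0.37, adjusted p = 0.0188, edgeR), and none fell, while 3 rose with the trend removed. The 4 MARK genes had log2 fold changes between -0.05 and 0.17, and none passed.

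**Figure D4:**
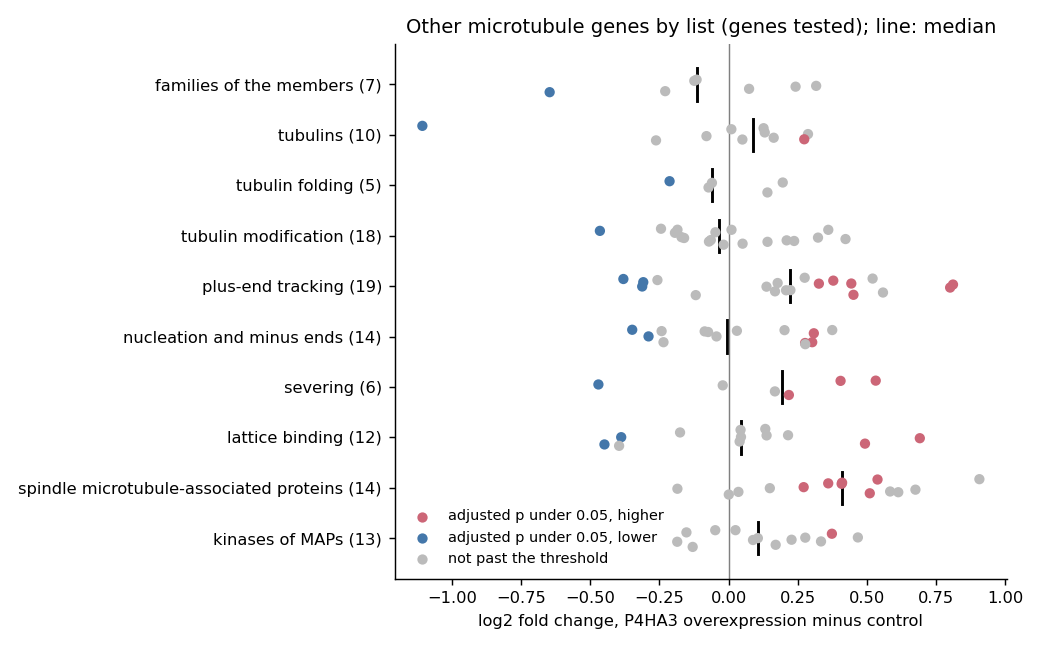
Log2 fold change (P4HA3 overexpression minus control) of the 118 other microtubule genes tested, by list, with the number tested in parentheses, a line at the list's median, red and blue points for genes past an adjusted p of 0.05 and grey for the rest. The median is highest in the spindle list (0.41), in which 6 points are red and none blue, and the lowest point is TUBB4A (-1.11).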

How the data were processed

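The members and gene lists were chosen with earlier results of these data known. Poly-A RNA libraries of 3 control and 3 P4HA3 overexpression samples were aligned by the authors to GRCh38 (the supplementary methods name STAR, the submitters' processing notes HISAT2) and counted per gene with HTSeq, and the deposited values are these raw counts without normalization. Of 60664 gene identifiers, 60463 matched GENCODE v44, a later release than the authors' annotation, which gave symbols, positions, GC content and length.

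Counts were fitted in R 4.3.3 with edgeR 4.0.16 (filterByExpr with a minimum count of 10, TMM, group as the only term, two-sided quasi-likelihood test) and adjusted by Benjamini-Hochberg over 15130 genes, at 0.05. Standard errors are the log2 fold change over the root of F, and the common biological coefficient of variation was 7.66%. Library totals of 21773488 to 24939948 counts make genes near 1 CPM imprecise. Libraries within a group were not copies (chi-square per degree of freedom 4.79 to 16.2). The trend on GC content and log2 length of each library was fitted with mgcv 1.9.3 and entered as an offset. The fits were tested on simulated data.

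Named genes were the members, P4HA3, all listed relatives, the 3 largest changes past the threshold with a mean of at least 1 CPM per other list, the most abundant alpha and beta-tubulin, and the 5 profiles nearest MAP2 (pseudocount 0.1 CPM), except 1 gene that is not reported here. Markers and genes at or near 0 or sharing exons were named after their values were seen. Alternatives were DESeq2 1.42.0, limma-voom (limma 3.58.1), RLE, library size only, no filter, at least 10 counts in every library, the replicate block, trend removal with and without it, and each library left out.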

Additional observations from a re-analysis of the deposited data

How the results depend on the processing

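MAP2 was called higher under all 15 alternatives, with a log2 fold change of 0.84 to 1.07 over the 9 that kept every library and 0.86 to 1.16 with a library left out. The members called higher were 2 with the GC and length trend removed, with or without the replicate block, and 1 to 2 with a library left out, MAP7D1 joining MAP2 with the trend removed and MAP1B without P4HA3 library 1. The members called lower were 1 with the trend removed and 1 to 2 with a library left out. Without a filter on low counts, and without control library 3, MAP1S was called lower too. Of the other microtubule genes, 38 rose without a filter, 42 with the trend removed and the replicate block, and 6 to 42 with a library left out, and 7 fell with the trend removed and 3 to 18 with a library left out. Of the 20 genes that the naming rule took from these lists, 14 kept their call with the trend removed, and none changed sign under any alternative. Whether the replicate numbers pair the samples is not given in the labels. The correlations of deviations were 0.250, -0.0486 and 0.0297 for numbers 1, 2 and 3. Only control library 1 was closest to the P4HA3 library of its own number, so these values do not settle it. With the replicate block, MAP2 was at 1.03, 33 other microtubule genes rose, and calls over all genes went from 1416 higher and 1731 lower to 2138 and 2175. Without a filter, 2384 were higher and 2101 lower, and with the trend removed 1598 and 1204. Without control library 1 or 2 or P4HA3 library 3, between 163 and 275 were higher and between 371 and 629 lower, and without P4HA3 library 1, 2814 and 2716. For members near 10 CPM (MAP2, MAP1A, MAP1B), 165 to 688 counts per library limit the precision.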
